A study of Mus musculus with 6 samples.

Results

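The genes described here are 41 genes of the extracellular matrix and of hepatic stellate cells: collagens, cross-linking enzymes, proteases and their inhibitors, growth factors and receptors, contractile proteins, matricellular proteins, proteoglycans and genes of the resting stellate cell. They were chosen by name, as the array features annotated with exactly 1 gene symbol equal to a listed gene. Of the 41, 39 had such a feature, among 20261 genes in all, and 38 passed a filter on dim features. Timp1 fell below that filter, and Lox and Fbn1 were not analysed here.

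The samples were 3 hepatocellular carcinomas (tumour 405, 483 and 616) and 3 samples of liver free of tumour (non-tumour 405, 483 and 623), from C57BL/6 mice aged 24 months and labelled SRSF3HKO. SRSF3HKO is a knockout in hepatocytes of Srsf3, the gene of a splicing factor rich in serine and arginine. Both groups carry this genotype, so the comparison holds no liver without it. By its name the knockout is aimed at hepatocytes. Which promoter drives the deletion is not stated in the labels, so whether other cells also carry it is not known here. Each sample was read on its own Affymetrix array from biotin-labelled total RNA. The labels do not say that a group holds separate animals. Genes of the sex chromosomes, given below, show that non-tumour 623 came from another animal than the rest. For the rest nothing beyond these numbers says so. Hence p-values measure the spread between these samples, part of which may be technical.

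Hepatic stellate cells lie between hepatocytes and the sinusoidal endothelium and store vitamin A when at rest. In injured liver they turn into contractile myofibroblasts that secrete fibrillar collagen, driven largely by TGF-beta and by PDGF. In liver carcinoma the same cells, portal fibroblasts and the walls of tumour vessels all contribute matrix.

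Values are log2(intensity + 16) after quantile normalization, in log2 units, and a difference is tumour minus non-tumour. Before that normalization the median feature with 1 symbol had an intensity of 83.6, 151 and 98.6 in tumour 405, 483 and 616, against 183, 122 and 197 in non-tumour 405, 483 and 623. Alb, the albumin gene of hepatocytes, lay between 13.22 and 13.33 on all 6 arrays. It had the same value, 13.33, in tumour 483 and 616 and in non-tumour 405 and 623. Quantile normalization gives every array the same set of values, so a gene this bright can vary little. Alb therefore does not check how much hepatocyte RNA each sample held. Srsf3 stood at 10.79, 10.55 and 9.89 in tumour 405, 483 and 616, against 10.51, 10.55 and 9.36 in non-tumour 405, 483 and 623, from a feature that may lie outside the deleted stretch and so does not check the labels. Non-tumour 623 differed from the other arrays in sex genes. There Xist, which silences an X chromosome, was at 5.17 and the Y-linked Eif2s3y at 8.69, against at least 10.55 and at most 5.10 elsewhere. That is the pattern of a male there and of females elsewhere, so the groups are not balanced for sex. In these bulk samples fewer cells of a type and less RNA per cell cannot be told apart.

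The comparison of tumour with non-tumour asked whether the carcinomas differ from non-tumorous liver of the same genotype in matrix and stellate cell genes. Of the 38 genes, 4 had groups that did not overlap, 2 higher in tumour (5.26%) and 2 lower (5.26%). Over all genes tested the shares were 3.93% higher and 3.89% lower, so the counts were near those of all genes. Aspn, a small proteoglycan that binds collagen and TGF-beta, and Sparc, a collagen-binding matricellular protein, lay higher in every tumour than in any non-tumour sample. Reln, a secreted glycoprotein that marks stellate cells in liver, and Pdgfra, a receptor for PDGF, lay lower in every tumour. The differences were 1.48 ± 0.41 for Aspn, 0.98 ± 0.37 for Sparc, -1.87 ± 0.69 for Reln and -1.18 ± 0.48 for Pdgfra (SE, n = 3 each).

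No gene passed the test. By limma with Benjamini-Hochberg adjustment over 16824 genes, 0 of the 38 were called, with adjusted p from 0.914 to 0.997, and 0% of all genes were. At an unadjusted p under 0.05 there were 2 of the 38 higher in tumour (5.26%) and 2 lower (5.26%), the same 4 genes. Over all genes the shares were 2.66% higher and 1.0% lower. Of the 2 higher, Aspn was dim, with deposited intensities of 156, 64.8 and 67.7 in tumour 405, 483 and 616. In non-tumour 405, 483 and 623 they were 44.9, 20.6 and 54.8, all below 62.3, the mean intensity that the filter required. Aspn thus passed the filter through its tumour values, and both counts of genes higher in tumour include it. Groups did not overlap in 3.93% of all genes with tumour higher and in 3.89% with tumour lower. With 3 samples in each group the smallest p that exact permutation allows is 0.1.

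On the deposited scale, without further normalization, limma called 1 of the 38, Pdgfra (-1.59 ± 0.39, SE, adjusted p = 0.0229), lower in tumour. There the median gene itself stood at -0.48, which leaves -1.11 for Pdgfra relative to it. On that scale 0 of the 38 were called higher, against 0.0832% of all genes, and 0.262% of all genes were called lower. In that fit no gene kept a variance of its own, since all were set to the trend. Across the 38 genes the difference was above 0 in 15 and below 0 in 23, with a median of -0.07, against a median of -0.05 over all genes tested.

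**Figure D1:**
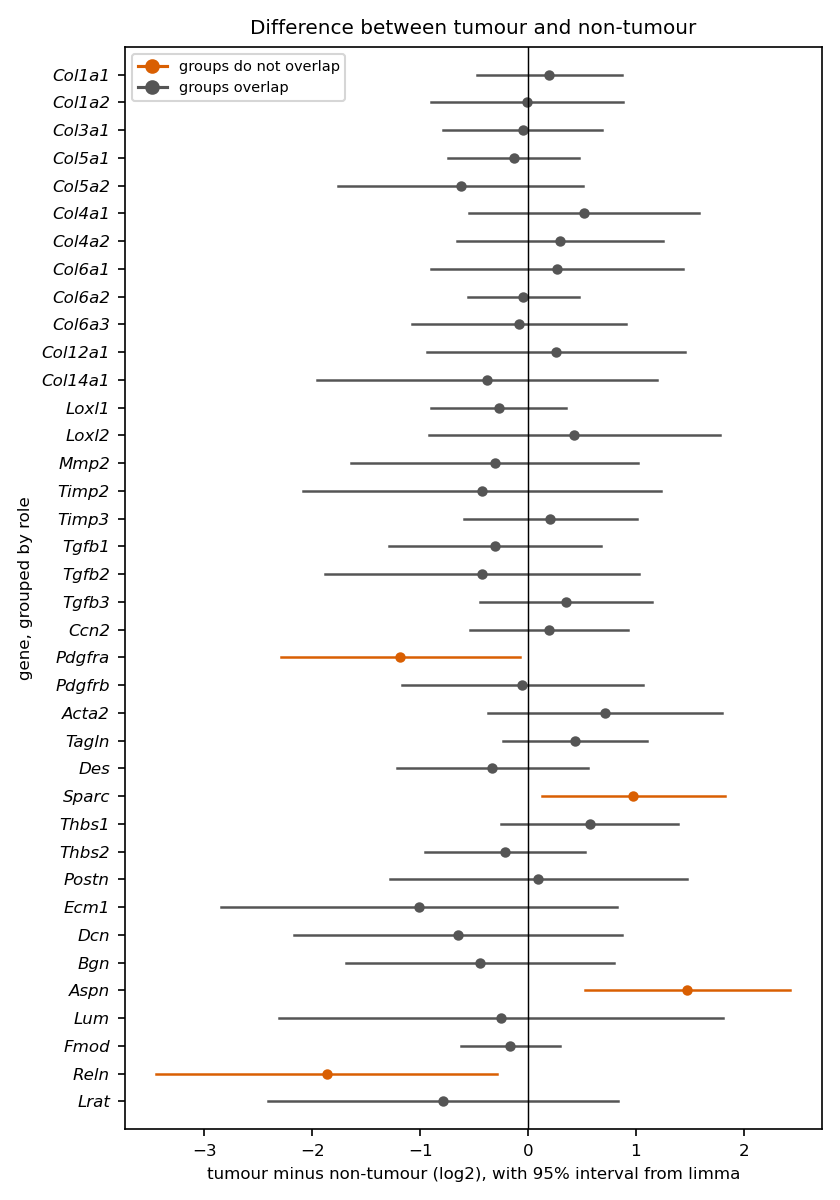
Difference between tumour and non-tumour (tumour minus non-tumour, log2 units, horizontal axis) for the 38 genes tested, in order of role down the page, with 95% intervals from limma. Aspn, Sparc, Reln and Pdgfra, whose groups did not overlap, are in orange, and the other 34 genes have intervals that include 0.

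The fibrillar collagens form the tensile fibres of scar tissue and of tumour stroma. Col1a1, a chain of type I collagen, stood at 8.45, 9.24 and 8.79 in tumour 405, 483 and 616, against 8.82, 8.71 and 8.35 in non-tumour 405, 483 and 623. The highest and the second lowest value were both tumours, and the difference was 0.20 ± 0.29 (SE). Its 95% interval ran from -0.48 to 0.87. Col1a2, the partner chain, stood at 8.12, 9.49 and 8.66 in tumour 405, 483 and 616, against 8.63, 9.18 and 8.49 in non-tumour 405, 483 and 623. For it the tumours held both extremes, and the difference was -0.01 ± 0.39.

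Col3a1, type III collagen, stood at 8.92, 9.44 and 9.09 in tumour 405, 483 and 616, against 9.65, 9.23 and 8.71 in non-tumour 405, 483 and 623. Here the non-tumour samples held both extremes, and the difference was -0.05 ± 0.32 (SE). After median centring in place of quantile normalization the differences of Col1a2 and Col3a1 were 0.20 and 0.25. Col5a2, a chain of the type V collagen that starts fibrils, stood at 6.97, 8.25 and 7.72 in tumour 405, 483 and 616, against 7.30, 9.15 and 8.36 in non-tumour 405, 483 and 623. The value came from the brighter of 2 features. The dimmer, which fell below the filter, stood at 5.70, 5.96 and 5.61 in tumour 405, 483 and 616, against 5.40, 5.49 and 5.36 in non-tumour 405, 483 and 623, so there every tumour lay above every non-tumour sample. The difference of Col5a2 was -0.63 ± 0.49, but -0.14 with both features, -1.17 when non-tumour 405 was left out and -0.19 when non-tumour 483 was. That of the partner chain Col5a1 was -0.13 ± 0.26. Of the 5 fibrillar collagens, 1 had a difference above 0 and 4 had one below 0.

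Type IV collagen forms the sheet of basement membranes, in liver chiefly around vessels and bile ducts. Col4a1 stood at 10.48, 11.38 and 9.57 in tumour 405, 483 and 616, against 10.44, 9.65 and 9.78 in non-tumour 405, 483 and 623. Col4a2 stood at 9.64, 10.50 and 9.19 in tumour 405, 483 and 616, against 10.08, 9.26 and 9.11 in non-tumour 405, 483 and 623. Both chains were highest in tumour 483, and among the non-tumour samples in 405. The differences were 0.52 ± 0.46 and 0.30 ± 0.42 (SE).

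These genes lie head to head on chromosome 8 with 0 protein-coding genes between them. Their RefSeq promoter windows (GRCm38.p6, from 250 bases before to 50 after the start used in that table) share 78 bases read from opposite strands, and those starts lie 21 bases apart. Both windows are shown because the genes ran in parallel across the tumours. Capitals mark CCAAT and GGGCGG on either strand, that is also ATTGG and CCGCCC. The Col4a1 window is chr8:11312777-11313076 on the minus strand and the Col4a2 window is chr8:11312555-11312854 on the plus strand.
Col4a1: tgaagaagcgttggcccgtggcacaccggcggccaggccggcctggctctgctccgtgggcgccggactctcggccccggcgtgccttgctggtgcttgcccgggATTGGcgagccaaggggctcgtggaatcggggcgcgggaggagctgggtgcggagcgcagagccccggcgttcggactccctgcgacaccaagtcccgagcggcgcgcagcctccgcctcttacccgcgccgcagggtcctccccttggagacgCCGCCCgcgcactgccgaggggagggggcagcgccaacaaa
Col4a2: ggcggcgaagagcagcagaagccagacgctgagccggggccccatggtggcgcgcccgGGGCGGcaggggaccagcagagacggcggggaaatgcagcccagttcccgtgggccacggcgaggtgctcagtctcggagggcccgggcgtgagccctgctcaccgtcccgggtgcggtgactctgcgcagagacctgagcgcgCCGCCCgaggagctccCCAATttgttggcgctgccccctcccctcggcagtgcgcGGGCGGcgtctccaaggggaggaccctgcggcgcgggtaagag
The Col4a1 window held 1 CCAAT and 1 GGGCGG, and the Col4a2 window 1 CCAAT and 3 GGGCGG, of which 1 GGGCGG lies in the shared bases. Of all 32851 promoter windows of this length, 37.4% held CCAAT and 35.7% held GGGCGG on either strand.

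Type VI collagen makes beaded filaments near cell surfaces. Its chains differed by 0.27 ± 0.51 for Col6a1, -0.04 ± 0.22 for Col6a2 and -0.08 ± 0.43 for Col6a3 (SE). Col6a2 was nearly level in the tumours, where it ranged over 0.04, while Col6a1 ranged over 1.84 and Col6a3 over 1.51. The collagens that sit on fibril surfaces spread widely. Col12a1 stood at 5.34, 7.69 and 6.30 in tumour 405, 483 and 616, against 6.05, 5.89 and 6.61 in non-tumour 405, 483 and 623. Col14a1 stood at 7.35, 9.97 and 9.64 in tumour 405, 483 and 616, against 8.55, 9.71 and 9.84 in non-tumour 405, 483 and 623. Tumour 405 was the lowest array for both, and the differences were 0.26 ± 0.52 and -0.38 ± 0.69. Without tumour 405 they were 0.82 and 0.43.

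The lysyl oxidase family cross-links collagen and elastin. Loxl1 differed by -0.27 ± 0.27 and Loxl2 by 0.43 ± 0.59 (SE). For Loxl2 the non-tumour samples ranged over 2.20 and the tumours over 1.32. Mmp2, the gelatinase that stellate cells secrete, differed by -0.31 ± 0.58. Timp2, which both inhibits Mmp2 and helps to activate it, stood at 6.28, 8.33 and 8.36 in tumour 405, 483 and 616, against 6.67, 9.02 and 8.57 in non-tumour 405, 483 and 623. Both samples numbered 405 lay over 1 log2 unit below the other 4, and the difference was -0.43 ± 0.72. Timp3, the inhibitor bound to matrix, differed by 0.21 ± 0.35.

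Timp1, an inhibitor typical of activated stellate cells, was dim. Its deposited intensities were 25.4, 166 and 24.5 in tumour 405, 483 and 616, against 54.5, 39.7 and 48.5 in non-tumour 405, 483 and 623. On the normalized scale tumour 483 stood at 7.34 and the other 5 arrays between 5.68 and 5.85. Timp1 therefore stood out in 1 of 3 tumours, and it was not tested because its mean intensity fell below 62.3, the 25th percentile of features.

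Among growth factors, Tgfb1, the main fibrogenic TGF-beta of liver, differed by -0.31 ± 0.43, Tgfb2 by -0.43 ± 0.63 and Tgfb3 by 0.35 ± 0.35 (SE). For Tgfb2 non-tumour 405, at 9.52, lay above the other arrays, which reached 8.49 in tumour 483. Ccn2, the connective tissue growth factor that TGF-beta and YAP induce, differed by 0.20 ± 0.32. The PDGF receptors sit on mesenchymal cells. Pdgfra stood at 5.10, 7.07 and 6.96 in tumour 405, 483 and 616, against 7.76, 7.62 and 7.31 in non-tumour 405, 483 and 623. The groups did not overlap, tumour 405 was the lowest array, and the group means were 6.38 ± 1.11 and 7.56 ± 0.23 (SD). The difference was -1.18 ± 0.48 (limma unadjusted p = 0.0389, adjusted p = 0.914), and -0.55 without tumour 405. Pdgfrb, the receptor most used by activated stellate cells, differed by -0.05 ± 0.49.

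Contractile genes are switched on when stellate cells become myofibroblasts, and vascular smooth muscle also uses them. Acta2, smooth muscle actin, stood at 7.53, 8.73 and 9.07 in tumour 405, 483 and 616, against 7.43, 7.24 and 8.52 in non-tumour 405, 483 and 623. Only tumour 405 overlapped with the non-tumour range, and the difference was 0.71 ± 0.47 (SE). Without tumour 405 it was 1.16, and without tumour 616 it was 0.39. Tagln, an actin-binding protein of smooth muscle, differed by 0.43 ± 0.29. Des, the intermediate filament desmin found in rodent stellate cells, stood at 6.39, 7.21 and 6.998 in tumour 405, 483 and 616, against 6.32, 7.75 and 7.52 in non-tumour 405, 483 and 623. Both samples numbered 405 were the lowest for Des, and its difference was -0.33 ± 0.39. It was -0.80 when non-tumour 405 was left out and -0.06 when non-tumour 483 was.

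Matricellular proteins sit in the matrix and modulate cells without building fibres. Sparc stood at 10.70, 11.30 and 10.11 in tumour 405, 483 and 616, against 10.03, 9.26 and 9.89 in non-tumour 405, 483 and 623. Tumour 616 lay just above non-tumour 405, so the groups were barely apart, and the group means were 10.70 ± 0.59 and 9.73 ± 0.41 (SD). The difference was 0.98 ± 0.37 (limma unadjusted p = 0.0288, adjusted p = 0.914), and the groups overlapped on the deposited scale. Thbs1, thrombospondin 1, an activator of latent TGF-beta, stood at 8.21, 9.49 and 8.38 in tumour 405, 483 and 616, against 8.01, 8.26 and 8.09 in non-tumour 405, 483 and 623. Tumour 483 alone stood well above the rest, and the difference was 0.57 ± 0.36, and 0.17 without tumour 483. Thbs2 differed by -0.22 ± 0.32.

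Postn, periostin, stood at 6.72, 9.20 and 8.58 in tumour 405, 483 and 616, against 7.74, 7.78 and 8.68 in non-tumour 405, 483 and 623. The tumours lay on both sides of the non-tumour samples, and the difference was 0.10 ± 0.60 (SE). Ecm1, a matrix protein that keeps TGF-beta latent in mouse liver, stood at 7.26, 10.33 and 9.30 in tumour 405, 483 and 616, against 8.78, 10.80 and 10.33 in non-tumour 405, 483 and 623. The difference was -1.01 ± 0.80, with -0.15 without tumour 405 and -1.70 without tumour 483. Its range over the tumours, 3.07, was the widest of the 38 genes.

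Small leucine-rich proteoglycans coat collagen fibrils and set their thickness. Dcn, decorin, stood at 9.49, 12.04 and 11.74 in tumour 405, 483 and 616, against 10.89, 12.20 and 12.12 in non-tumour 405, 483 and 623. Bgn, biglycan, stood at 9.82, 12.14 and 11.51 in tumour 405, 483 and 616, against 11.17, 11.93 and 11.71 in non-tumour 405, 483 and 623. Lum, lumican, stood at 5.98, 8.60 and 9.01 in tumour 405, 483 and 616, against 6.59, 9.36 and 8.40 in non-tumour 405, 483 and 623. In all 3 genes tumour 405 was the lowest array and non-tumour 405 the lowest of its group. The differences were -0.65 ± 0.66, -0.44 ± 0.54 and -0.25 ± 0.90 (SE), and without tumour 405 they were 0.15, 0.22 and 0.69. Fmod, fibromodulin, differed by -0.16 ± 0.20 and ranged over 0.18 in the tumours and 0.21 in non-tumour.

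Aspn, of the same family, had the tumours in another order. It stood at 8.02, 6.23 and 6.78 in tumour 405, 483 and 616, against 5.50, 5.24 and 5.85 in non-tumour 405, 483 and 623. Tumour 405, the lowest array for Dcn, Bgn and Lum, was the highest for Aspn, and means were 7.01 ± 0.92 and 5.53 ± 0.30 (SD). The difference was 1.48 ± 0.41 (limma unadjusted p = 0.0071, adjusted p = 0.914), the smallest unadjusted p of the 38 genes. Aspn was dim, with deposited intensities of 156, 64.8 and 67.7 in tumour 405, 483 and 616, against 44.9, 20.6 and 54.8 in non-tumour 405, 483 and 623. Without tumour 405 it fell below the filter and was not tested, although tumour 483 and 616 still lay above all 3 non-tumour samples.

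Both genes of the resting stellate cell had a difference below 0. Reln stood at 6.73, 9.30 and 9.55 in tumour 405, 483 and 616, against 10.78, 10.24 and 10.15 in non-tumour 405, 483 and 623. The non-tumour samples lay within 0.63 of each other, tumour 405 lay far below the other tumours, and the means were 8.52 ± 1.56 and 10.39 ± 0.34 (SD). The difference was -1.87 ± 0.69 (limma unadjusted p = 0.0261, adjusted p = 0.914), and -0.93 without tumour 405, where the groups still did not overlap. Lrat, the enzyme that esterifies retinol for storage, stood at 6.33, 8.63 and 7.84 in tumour 405, 483 and 616, against 7.03, 9.35 and 8.79 in non-tumour 405, 483 and 623. The groups overlapped because non-tumour 405 lay below 2 tumours, and the difference was -0.79 ± 0.71, with -0.14 without tumour 405 and -1.54 without non-tumour 405.

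**Figure D2:**
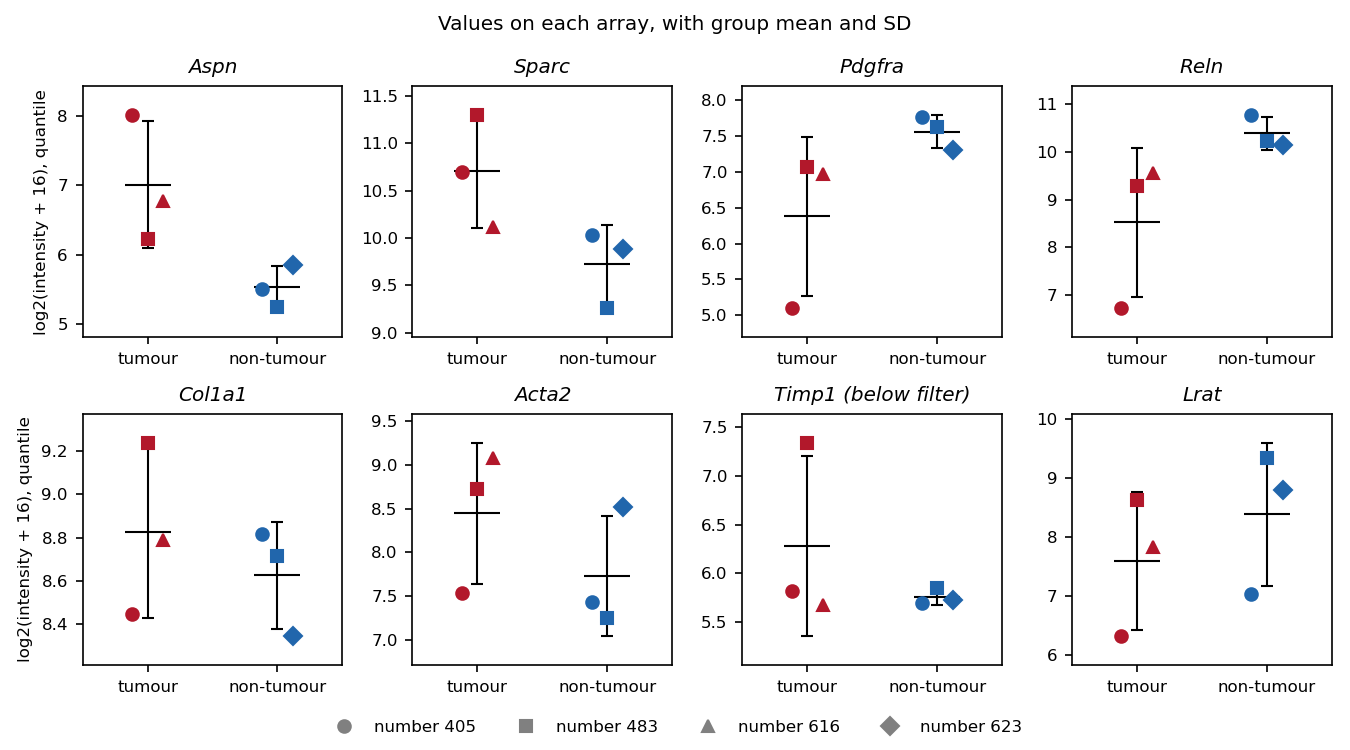
Values on each array for 8 genes (vertical axis, log2(intensity + 16) after quantile normalization), tumour left of non-tumour, with symbols for the sample numbers and horizontal marks and bars for group mean and SD, and a vertical scale of its own in each panel. Aspn and Sparc lie higher and Pdgfra and Reln lower in every tumour, and Timp1 stands out in tumour 483 alone, at 7.34.

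Aspn and Reln, the members with the largest difference in each direction, had promoter windows of opposite base composition, which is why both are shown. The Aspn window (GRCm38.p6, chr13:49544193-49544492, plus strand) was 31.0% G or C, lower than all but 1.3% of windows. The Reln window (chr5:22344656-22344955, minus strand) was 80.7% G or C, higher than 99.2% of windows. Capitals again mark CCAAT and GGGCGG on either strand.
Aspn: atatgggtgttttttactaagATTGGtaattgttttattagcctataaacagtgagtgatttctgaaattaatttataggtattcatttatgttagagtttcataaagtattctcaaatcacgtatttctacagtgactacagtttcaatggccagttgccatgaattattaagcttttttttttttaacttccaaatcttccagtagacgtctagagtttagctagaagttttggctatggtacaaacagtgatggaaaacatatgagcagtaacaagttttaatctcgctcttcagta
Reln: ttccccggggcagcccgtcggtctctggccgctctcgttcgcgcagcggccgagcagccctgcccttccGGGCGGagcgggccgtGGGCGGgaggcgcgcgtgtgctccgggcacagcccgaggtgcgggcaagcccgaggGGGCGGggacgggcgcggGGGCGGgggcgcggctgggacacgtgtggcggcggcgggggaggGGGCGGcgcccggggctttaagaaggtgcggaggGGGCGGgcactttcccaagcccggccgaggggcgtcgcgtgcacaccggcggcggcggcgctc
The Aspn window held 1 CCAAT and 0 GGGCGG, and the Reln window 0 CCAAT and 6 GGGCGG. Over the 28 windows of the 26 members with an entry the share of G or C ran from 31.0% to 80.7%, with a median of 57.0% against 52.7% for all windows. Sparc, higher in tumour, had a window of 55.3% G or C, and Pdgfra, lower in tumour, one of 51.0%. Aspn and Reln are thus the extremes of the set, and a link between base composition and direction was not tested.

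The spread among the tumours was wide in these genes. In 24 of the 38 (63.2%) the 3 tumours ranged over more than the 3 non-tumour samples, against 33.3% of all genes tested. This was not particular to them. In the marker lists given below the share was 83.3% for sinusoidal endothelium, 83.3% for hepatocytes, 72.7% for Kupffer cells and macrophages and 60% for general endothelium. It was 50% for cholangiocytes, 40% for other stellate cell markers, 33.3% for smooth muscle and pericytes and 25% for portal fibroblasts and mesothelium. The median range was 1.53 in tumour and 0.94 in non-tumour for the 38 genes, against 0.43 in tumour and 0.63 in non-tumour over all genes. The order of the tumours was shared by most of the genes. Tumour 405 was the lowest of the 3 tumours in 29 of 38 (76.3%, against 32.0% of all genes), and tumour 483 the highest in 30 of 38 (78.9%, against 33.5%). Among all 6 arrays tumour 405 was the lowest in 18 of 38 (17.5% of all genes) and tumour 483 the highest in 15 of 38 (9.15% of all genes). These counts rest on single arrays: without tumour 405 the range was wider over tumours in 9 of 37 genes, against 18.6% of all genes, and without tumour 483 in 14 of 37, against 17.3%. With 2 tumours set against 3 non-tumour samples a range is narrower by construction.

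**Figure D3:**
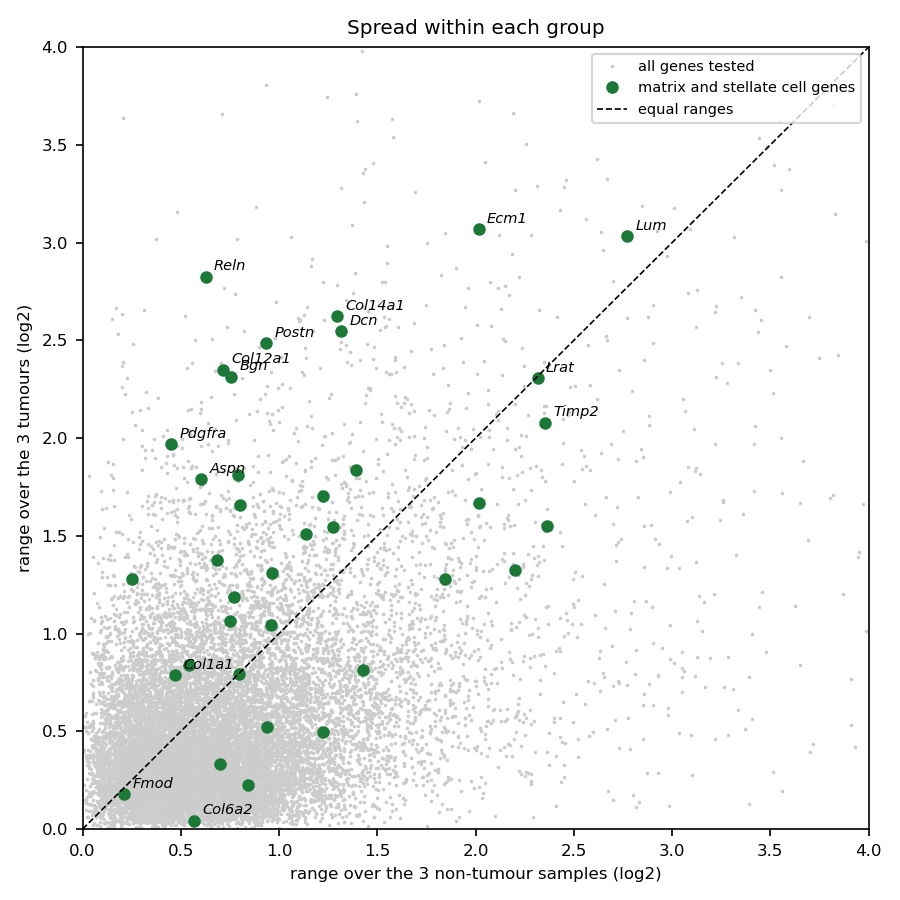
Range over the 3 tumours (vertical axis, log2 units) against range over the 3 non-tumour samples (horizontal axis) for the 38 genes in green and all genes tested in grey, with a dashed line of equal ranges. Of the 38 genes 24 lie above the line, with Ecm1, Lum and Reln highest, and 71 of the other genes lie outside the axes.

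The median deviation of the 38 genes from their 6-array means was -0.64, 0.62 and -0.04 in tumour 405, 483 and 616, against -0.32, 0.19 and 0.13 in non-tumour 405, 483 and 623. For all genes tested these medians lay between -0.03 and 0.07. The low values in tumour 405 were uneven by role. The median deviation there was -1.56 for the 5 proteoglycans and -2.20 for the 2 genes of the resting stellate cell. It was -0.28 for the 5 fibrillar collagens and 0.14 for the 2 basement membrane collagens. Of the proteoglycans Dcn, Bgn and Lum were low in tumour 405, while Aspn was at its highest and Fmod, at 7.95, was the highest tumour value. In tumour 483 the median deviation was 1.02 for the basement membrane collagens, 1.08 for the 5 matricellular proteins and 1.08 for the 2 fibril-surface collagens. Tumour 405 was also the array with the lowest median intensity, and tumour 483 the tumour with the highest. The part of array brightness in these values was not tested. On the deposited scale tumour 405 was the lowest tumour in 32 of the 38 genes, and after median centring in 31. On the deposited scale the low median of tumour 405 raises such a count for any genes. The share of all genes was not counted in either setting.

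**Figure D4:**
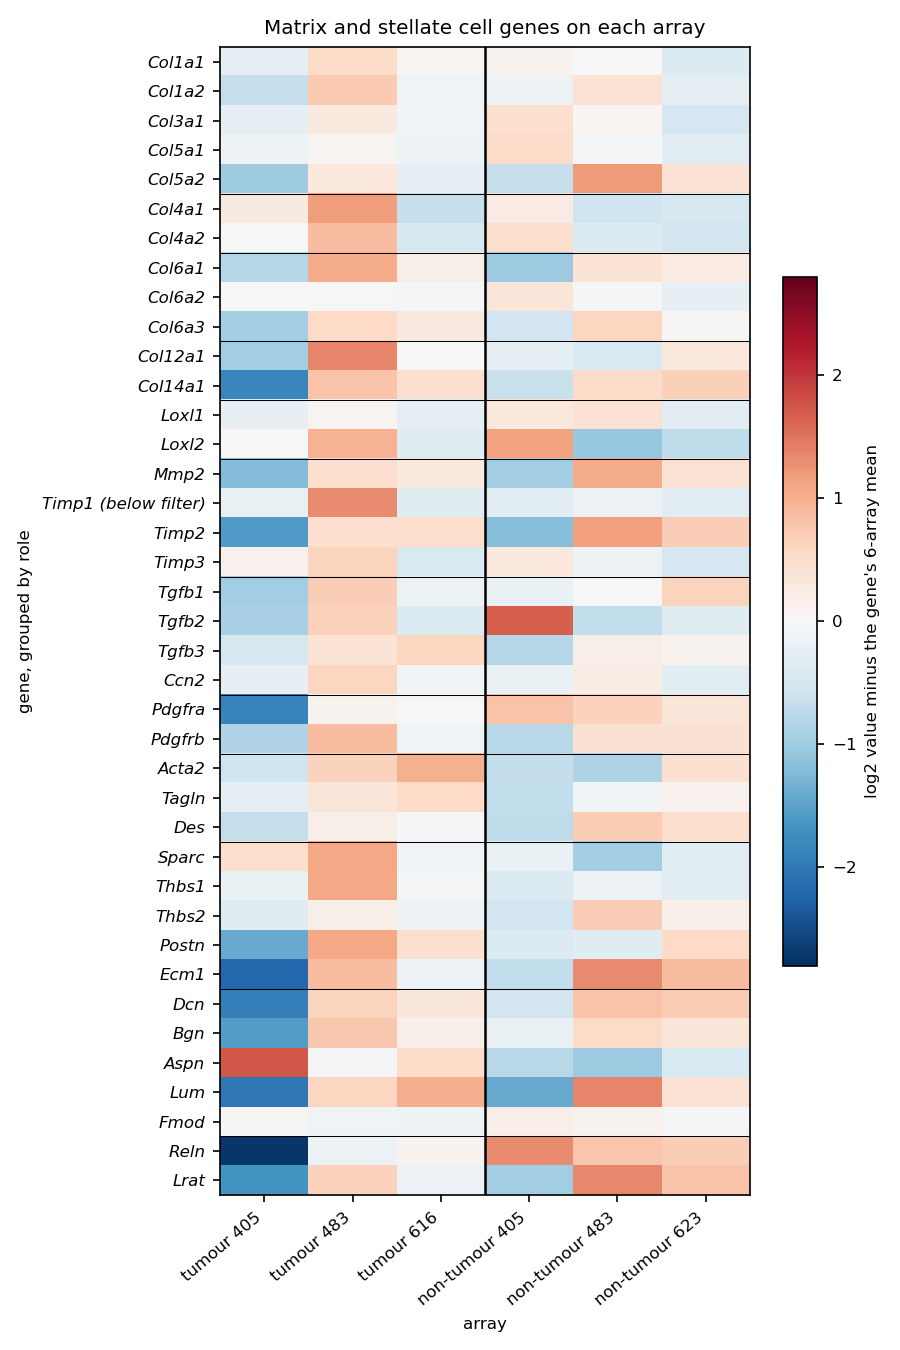
Deviation of each gene from its 6-array mean (colour, log2 units) for the 39 genes with a feature, in rows ordered by role, with the 3 tumours left of the 3 non-tumour samples. Tumour 405 is low for most genes but high for Aspn, tumour 483 is high for most, and Timp1, below the filter, is high in tumour 483.

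Markers of other cells moved with some of these genes, and their part in the results was not tested. Of the 15 other stellate cell markers tested, 5 had a difference above 0, with a median of -0.15, and none was called. Their summed level, in normalized intensity, was 3940 to 9468 in tumour and 4018 to 8387 in non-tumour, lowest in both samples numbered 405. Ednrb, an endothelin receptor of stellate and endothelial cells, differed by 1.14 ± 0.44 (SE) and was the only one of these markers without overlap. Of 10 general endothelial markers 7 had a difference above 0 and 3 had tumours all higher, Emcn (1.60 ± 0.42), Esam (1.17 ± 0.34) and Tie1 (0.82 ± 0.26), with a sum of 4696 to 8738 in tumour and 4543 to 5622 in non-tumour. Those sums were 5851, 8738 and 4696 in tumour 405, 483 and 616, the order in which Sparc, Col4a1 and Col4a2 also ran. In non-tumour 405, 483 and 623 the sums were 4724, 4543 and 5622. There the order differed, as Sparc, Col4a1 and Col4a2 were highest in non-tumour 405. The 6 sinusoidal endothelial markers had a median difference of -0.14 and sums of 1636, 5671 and 3500 in tumour 405, 483 and 616, against 3601, 2739 and 4215 in non-tumour 405, 483 and 623.

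Kupffer cell and macrophage markers were below 0 in 10 of 11, with a median of -0.86. Their sums were 1844, 14183 and 5525 in tumour 405, 483 and 616, against 4501, 12517 and 17315 in non-tumour 405, 483 and 623, so the lowest sum stood in tumour 405, as for the stellate cell genes. Of the 12 portal fibroblast and mesothelial markers 4 had a difference above 0 and 8 below, with a median of -0.13. Their sums were 2965 to 4333 in tumour and 2582 to 3394 in non-tumour. Among the 4 above 0, Cd34, which endothelium also carries, differed by 1.48 ± 0.38 (SE) and Clec3b, tetranectin, by 0.41 ± 0.16, both without overlap. The 12 smooth muscle and pericyte markers, 6 above 0 and 6 below, had a median of -0.04. Their sums were 2315 to 3707 in tumour and 2373 to 2874 in non-tumour. Of these, Lmod1, a muscle leiomodin, differed by 0.70 ± 0.19 without overlap. The 4 cholangiocyte markers tested had a median of -0.06 and sums of 609 to 931 in tumour and 677 to 794 in non-tumour. Of 6 hepatocyte markers 5 lay below 0, among them Tdo2, which degrades tryptophan (-0.87 ± 0.22, without overlap), with sums of 31143 to 39706 in tumour and 37902 to 44173 in non-tumour. An intensity of 0 occurs nowhere in the deposited values, so its absence from these marker lists does not show that every marker lay above the floor.

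Other genes of matrix metabolism were counted from lists, and limma called 0 of them. Of 11 genes of collagen processing 8 had a difference above 0 (median 0.08), among them P4ha1, a subunit of prolyl hydroxylase (0.47 ± 0.47, SE). The smallest p of that list belonged to Pcolce2, an enhancer of procollagen cleavage, with a difference of -1.11 ± 0.76. Of 31 other matrix proteins 10 lay above 0 (median -0.21). Col18a1, the source of endostatin, differed by -0.52 ± 0.25 without overlap, and Fn1, fibronectin, by -0.66 ± 0.36. Of 16 genes of matrix turnover 8 lay above 0 (median 0.02), and Adamts1, an aggrecan protease, differed by 0.44 ± 0.27 without overlap. Mmp13, the interstitial collagenase of mouse liver, stood at 6.36, 8.20 and 7.59 in tumour 405, 483 and 616, against 6.10, 5.80 and 6.05 in non-tumour 405, 483 and 623. Every tumour lay above every non-tumour sample for Mmp13, and the difference was 1.40 ± 0.41 (limma unadjusted p = 0.0089, adjusted p = 0.914).

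In the TGF-beta pathway 17 of 18 genes had a difference below 0, against 9503 of 16824 over all genes, with a median of -0.20. The smallest p belonged to Tgfbr3, the co-receptor betaglycan (-0.96 ± 0.48, SE), and Smad7, the inhibitory Smad that TGF-beta itself induces (-0.67 ± 0.34), and the groups overlapped for both. Of 4 PDGF ligands 2 lay above 0. Pdgfa, a ligand of Pdgfra, stood at 9.81, 9.58 and 9.58 in tumour 405, 483 and 616, against 8.20, 7.83 and 9.67 in non-tumour 405, 483 and 623. Its groups overlapped through non-tumour 623, the sample that differed in sex genes, and the difference was 1.09 ± 0.46 (limma unadjusted p = 0.0454, adjusted p = 0.914).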

How the data were processed

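RNA of 3 tumours and 3 non-tumour samples was measured on 1 array each, grouped by the tissue label. The table holds linear intensities, deposited after the authors had normalized them with PLIER (per the labels, which name no version). The submitters' processing notes name mm9 as the build. Of 238609 features, 24343 had exactly 1 gene symbol, 1797 several and 212469 none, and 23782 were matched by Entrez number to the RefSeq gene table.

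Array medians spanned 1.09 log2 units as deposited, so log2(intensity + 16) was quantile-normalized over features with 1 symbol. Features with a mean intensity at or above the 25th percentile, 62.3, were kept, and the 18257 kept features gave 16824 genes, each the median of its features. Differences of dim genes are understated by the pseudocount of 16. Groups were compared with limma 3.58.1 in R 4.3.3 (lmFit, eBayes with an intensity trend, prior degrees of freedom 4.18), with Benjamini-Hochberg adjusted p under 0.05 over all genes. The steps with quantile normalization were tested on simulated data. The number of arrays limits the precision, with a median SE of 0.45 over the 38 genes.

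The members, lists and tests were chosen with earlier results of these data known. Values on every array are printed for members whose groups did not overlap, the 10 with the largest difference, the 10 with the widest range over tumours, and a set of 7 (Col1a1, Col1a2, Col3a1, Acta2, Timp1, Des and Lrat). Other array values were chosen for display after they were seen. From each other list at most 3 genes with the smallest p are named. Alternatives covered the scaling, pseudocount, filter, choice of feature, variance trend, the shared sample numbers and each array left out.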

Additional observations from a re-analysis of the deposited data

How the results depend on the processing

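The naming rule selects 20 tested members, which leaves out Col4a1 and Col4a2, and under 15 alternatives these gave 294 differences. Of those, 271 kept their direction and side of the threshold, 22 changed direction and 1 passed the threshold. As no member passed with all arrays, the side of the threshold was nearly fixed in advance, and the count chiefly tracks direction. Members called remained 0 except on the deposited scale, where 1 (Pdgfra, -1.59) was called. Members at an unadjusted p under 0.05, 4 with all arrays, were 9 on the deposited scale, against 1440 of 16824 genes there. They were 2 with the filter at the median, which kept 32 members and dropped Aspn and Pdgfra, against 483 of 11759 genes. Members without overlap, 4 with all arrays, were 2 with that filter and 6 after median centring, where Col4a2 and Timp3 joined the 4. The share of all genes without overlap was not counted in those settings. On the deposited scale the differences of Col1a1 (-0.11), Col12a1 (-0.21) and Postn (-0.38) turned below 0, where the median gene stood at -0.48, and after median centring those of Col1a2 (0.20) and Col3a1 (0.25) turned above 0, where it stood at 0.06. The cause was not tested beyond these shifts.

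With each array left out, members called ran from 0 to 0, members at an unadjusted p under 0.05 from 2 to 5, members without overlap from 4 to 12, members with the wider range over tumours from 9 to 34, and the median difference from -0.37 to 0.27. The extremes of the counts came without non-tumour 405 (12 and 34 of 39) and without tumour 405 (9 of 37). Over all genes the range was wider over tumours in 63.3% and 18.6% in these settings. Genes at an unadjusted limma p under 0.05 ran from 283 of 16830 without tumour 405 to 1730 of 16823 without non-tumour 623. The share of all genes without overlap was not counted with an array left out. Groups of 2 overlap less often and range less by construction. Differences that crossed 0 ran from -0.0074 to 0.38 for Col1a1, -0.37 to 0.30 for Col1a2, -0.29 to 0.18 for Col3a1, -0.87 to 0.43 for Col14a1, -1.19 to 0.27 for Timp2, -0.42 to 0.81 for Postn, -1.13 to 0.15 for Dcn, -0.95 to 0.22 for Bgn and -1.05 to 0.69 for Lum. The highest of these came without tumour 405 except for Col3a1.

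The groups share the numbers 405 and 483. Deviations from the group means correlated over all genes at 0.286 between the samples numbered 405 and at -0.008 between those numbered 483, and over the members at 0.543 and 0.154. Over the members tumour 483 correlated more with non-tumour 623 (0.20), and tumour 616 at 0.498 with non-tumour 483. The numbers may mark animals, but the labels do not say so, and pairing was not settled. With the number as a replicate block, which leaves 1 residual degree of freedom, 0 members were called, with a median difference of -0.16. At an unadjusted limma p under 0.05 there were 4 members, against 1049 of 16824 genes. The differences were then 1.75 for Aspn, 1.35 for Sparc, -2.50 for Reln and -1.60 for Pdgfra.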

Other observations

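Several members are neighbours in the genome, with 0 protein-coding genes between them in the RefSeq gene table (GRCm38.p6), and neighbours did not always run alike. Dcn and Lum, both on chromosome 10, were lowest in tumour 405 (9.49 and 5.98) and within their group in non-tumour 405 (10.89 and 6.59). Col6a1 and Col6a2, on the same chromosome, ranged over 1.84 and 0.04 in the tumours and over 1.39 and 0.56 in non-tumour. Col3a1 and Col5a2, on chromosome 1, were highest in different non-tumour samples, Col3a1 in 405 (9.65) and Col5a2 in 483 (9.15). Aspn lies with 1 protein-coding gene between it and Ogn, osteoglycin of the same proteoglycan family, on chromosome 13. Ogn stood at 5.65, 5.92 and 5.85 in tumour 405, 483 and 616, against 5.69, 7.06 and 6.69 in non-tumour 405, 483 and 623, a difference of -0.67 ± 0.32 (SE, limma adjusted p = 0.914), where that of Aspn was 1.48 ± 0.41.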
